A study of Homo sapiens with 16 samples.

Results

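The secreted proteins IL1A, IL1B, IL6, LIF, CXCL1, CXCL2, CXCL3, CCL2 and CCL20, are a core of the inflammatory program that senescent cells release, known as the senescence-associated secretory phenotype. The 9 genes were taken by name from a count table of 25369 genes, and all 9 are in it; the choice was made with earlier results of these data known. RNA-seq was done in 16 libraries from TPC1 and K1 cells, human papillary thyroid carcinoma lines with wild type p53. Each line was treated for 24 h with nutlin at 10 µM, with GSK2830371 at 25 µM, with the 2 drugs together (the combination) or with 0.2% DMSO as vehicle, and each group had 2 libraries. Nutlin (nutlin-3a) blocks MDM2, the ubiquitin ligase that holds p53 down, and GSK2830371 inhibits PPM1D, a phosphatase that opposes p53 and stress signaling. TPC1 cells were kept in RPMI and K1 cells in DMEM, both with 10% serum, so line and medium cannot be told apart. The lines also differ in their sequencing identifiers, which cannot be told apart from the line either. Each line is a single line grown without stroma or immune cells, which limits it as a model of tumor cytokine levels.

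IL1A and IL1B are the apical cytokines of the family and signal through the IL-1 receptor to NF-κB, which drives transcription of IL6 and of the chemokine genes. IL6 and LIF signal through receptors that share the subunit IL6ST (gp130). CXCL1, CXCL2 and CXCL3 attract neutrophils through CXCR2, CCL2 attracts monocytes, and CCL20 attracts lymphocytes and dendritic cells that carry CCR6. Their mRNAs are short-lived and are controlled both by NF-κB and C/EBP factors at the promoter and by decay factors that bind AU-rich elements. p53 is known to restrain NF-κB in many settings, although some of these genes rise when p53 is activated.

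The promoters of the chemokine genes CXCL1, CXCL2 and CXCL3 and of IL6 are shown because they share an NF-κB-type motif near the start site. RefSeq promoter windows (GRCh38.p14) were held for 7 of the 9 genes, with 2 start sites for IL1A, and the 150 bases before the start of these 4 genes are given 5′ to 3′ on the gene's strand with the κB match in capitals.
CXCL1, chr4:73869243-73869392, plus strand: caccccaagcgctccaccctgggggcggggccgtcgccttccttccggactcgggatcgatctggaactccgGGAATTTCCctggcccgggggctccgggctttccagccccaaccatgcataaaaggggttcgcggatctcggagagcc
CXCL2, chr4:74099196-74099345, minus strand: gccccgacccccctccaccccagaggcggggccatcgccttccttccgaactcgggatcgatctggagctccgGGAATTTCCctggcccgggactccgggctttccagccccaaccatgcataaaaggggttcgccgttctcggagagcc
CXCL3, chr4:74038690-74038839, minus strand: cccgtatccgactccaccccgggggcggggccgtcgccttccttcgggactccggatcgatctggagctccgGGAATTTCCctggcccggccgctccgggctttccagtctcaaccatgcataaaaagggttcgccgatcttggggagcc
IL6, chr7:22727050-22727199, plus strand: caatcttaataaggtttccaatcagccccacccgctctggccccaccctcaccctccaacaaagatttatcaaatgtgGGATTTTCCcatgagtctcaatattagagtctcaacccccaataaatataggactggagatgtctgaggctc

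The κB letters GGANTTTCC were searched on both strands of windows from 250 bases before to 50 bases after the start. Other forms of the κB motif were not searched, so a window without a match, such as that of CCL20, may still hold a κB site. The match lies at positions -78 to -70 in CXCL1 and CXCL3, -77 to -69 in CXCL2 and -72 to -64 in IL6, all on the gene's own strand. The same letters occur in 577 of 35116 RefSeq promoters of this length (1.64%). The C/EBP letters TTGCNNAA were found in IL1B, CXCL2 and IL6 and in 10.5% of all promoters, and the AP-1 letters TGANTCA in both IL1A promoters and in 7.71% of all. TATAAA was found in IL1A and CCL20 and in 11.5% of all promoters, and TGATGNAAT, the letters of C/EBP-ATF response elements, were in none of the members' windows and in 0.991% of all. No 2 of these motifs overlapped in the windows of the members. These matches describe the letters only.

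**Figure D1:**
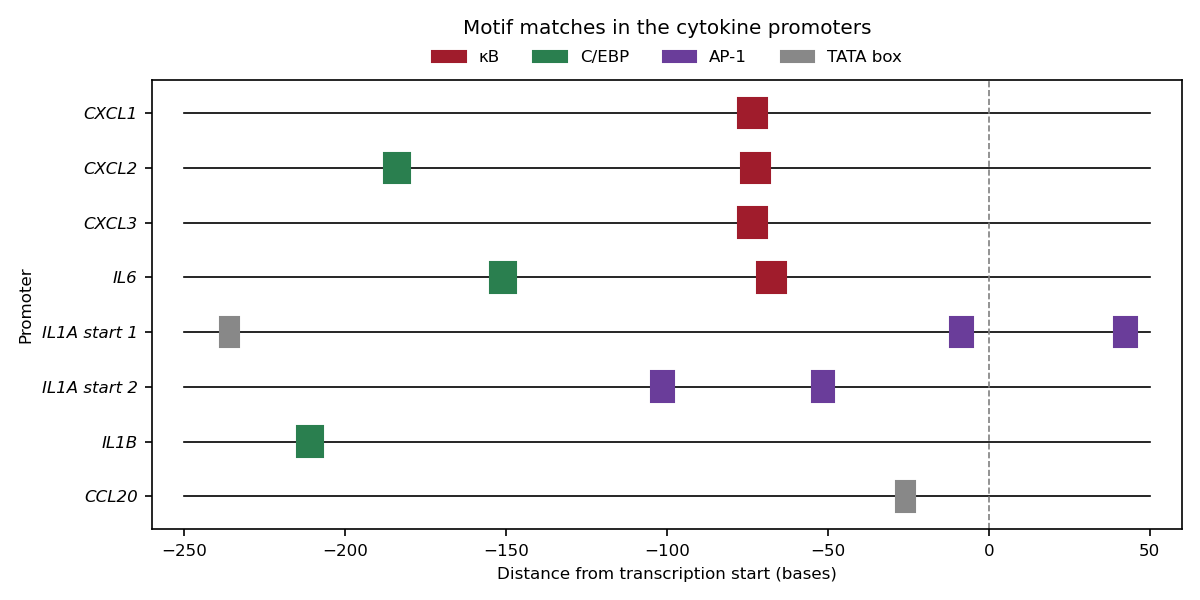
Motif matches (colored boxes) in the 8 RefSeq promoter windows of 7 cytokine genes, with distance from the transcription start in bases on the horizontal axis and the start as a dashed line. CXCL1, CXCL2, CXCL3 and IL6 carry a κB match between 64 and 78 bases before the start.

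In the gene models of GRCh37, the build of the counts, IL1A (chr2:113531502-113542070) and IL1B (chr2:113587328-113594393) are neighbors 45.3 kb apart. CXCL1 (chr4:74735110-74737025), CXCL3 (chr4:74902306-74904524) and CXCL2 (chr4:74962757-74964913) lie in one cluster, with 58.2 kb between CXCL2 and CXCL3. IL6 (chr7:22765503-22771621), LIF (chr22:30636442-30642748), CCL2 (chr17:32582293-32584227) and CCL20 (chr2:228670455-228682280) stand alone. The transcripts of CXCL1 and CXCL2 are 91.3% identical over their alignment, CXCL1 and CXCL3 85.6%, and CXCL2 and CXCL3 85.1%. Windows of 50 bases were shared exactly in 5.33% of CXCL1 against CXCL2, 0.533% of CXCL1 against CXCL3 and 5.07% of CXCL2 against CXCL3, and how many reads this affects was not tested.

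Library totals ran from 30789887 to 76648552 reads in TPC1 and from 28888686 to 37161241 in K1. Levels are given as CPM, read counts scaled to a common library total. The p53 targets followed the labels: CDKN1A, the cell cycle inhibitor p21, was at 138 ± 15.9 CPM (SD, n = 2) in vehicle-treated TPC1 and 6741 ± 80.7 with nutlin, and at 114 ± 5.10 and 1022 ± 61.9 CPM in K1. MDM2 went from 132 ± 13.03 to 4106 ± 31.6 CPM with nutlin in TPC1 and from 156 ± 1.05 to 1287 ± 35.8 in K1, and PPM1D from 15.8 ± 1.09 to 59.3 ± 1.05 and from 21.8 ± 1.16 to 54.5 ± 5.22. Of 7 thyroid genes, TSHR was at 0 in every library and NKX2-1 in every TPC1 library, so differentiated thyroid markers were in part absent. The list summed to 319 to 489 CPM in TPC1 and 782 to 886 in K1, most of it PAX8. TG in TPC1 had 6 and 22 reads with DMSO, 70 and 155 with nutlin, and 184 and 221 with the combination. In K1 it had 98 and 103, 159 and 183, and 197 and 199. SLC5A5 in TPC1 had 0 reads in both DMSO libraries and 4 and 16 with nutlin. Of the 6 epithelial markers, KRT8 and KRT18 held most of the reads. CDH1 had 0 to 2 reads per library in both lines, EPCAM 0 to 17 and KRT19 1 to 31. The 6 markers summed to 788 to 915 CPM in vehicle-treated TPC1 and 426 to 499 with the combination, and to 1162 to 1241 and 898 to 975 in K1. The part of this difference in the cytokine results was not tested. The 7 endothelial and fibroblast markers stayed at or under 6.10 CPM in sum in every library.

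Without drug, the 2 lines made different cytokines. In vehicle-treated TPC1 the order per kb of exon was CXCL1 at 42.2 ± 3.50 CPM per kb, LIF at 14.5 ± 1.20, CCL2 at 7.10 ± 1.04, CXCL2 at 3.58 ± 0.255 and IL6 at 3.08 ± 0.394 (SD, n = 2). CXCL3, IL1B and IL1A were below 1 CPM per kb, the last 2 with overlapping libraries, and CCL20 had no read. In vehicle-treated K1 IL1B led at 486 ± 6.37 CPM per kb, followed by CXCL1 at 211 ± 13.8, LIF at 49.6 ± 0.411, IL6 at 17.2 ± 3.21 and IL1A at 12.9 ± 0.985. CXCL2 and CXCL3 overlapped each other at 5.80 ± 0.790 and 4.94 ± 0.643 CPM per kb, and CCL20 and CCL2 overlapped below 1. K1 thus transcribed the 2 IL-1 genes at levels where TPC1 had 6 to 21 reads per library.

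Between the lines under DMSO, all 9 genes were called, 8 higher in K1 and CCL2 lower, where 46.2% of 16738 genes tested were called. A gene was called when edgeR's quasi-likelihood test gave a Benjamini-Hochberg adjusted p under 0.05 over all genes tested and the change exceeded 1.5-fold. IL1B had 0.349 and 0.152 CPM in the TPC1 libraries and 726 and 739 CPM in the K1 libraries, a difference of 11.66 ± 0.17 on the log2 scale (SE, adjusted p = 4.7e-17). IL1A had 0.161 and 0.289 CPM against 24.6 and 27.4, a difference of 6.69 ± 0.22 (adjusted p = 1.3e-13). CCL2 ran the other way, at 7.25 and 8.93 CPM in TPC1 against 0.570 and 0.863 in K1, a log2 difference of -3.52 ± 0.25 (adjusted p = 1.7e-09). The groups did not overlap for any of these 3 genes. The IL-1 differences rest on few TPC1 reads, 13 and 11 for IL1B and 6 and 21 for IL1A. Over 24 alternatives they ran from 11.03 to 12.17 for IL1B and from 6.44 to 7.31 for IL1A, wider than their SEs.
The other differences in K1 over TPC1 were smaller, at 2.54 ± 0.24 for CXCL3, 2.44 ± 0.19 for IL6, 2.30 ± 0.10 for CXCL1, 1.76 ± 0.08 for LIF and 0.67 ± 0.13 for CXCL2. CCL20 was at 0 in both TPC1 libraries and at 0.599 and 0.701 CPM in K1, which is at least 8.07-fold higher when TPC1 is set to the floor of 3 reads in the shallower library. The median log2 difference of the 9 genes was 2.44, with CCL20 as fitted or at this bound, against 0.02 over all genes. Without K1 DMSO replicate 2 the CXCL2 difference was 0.53 and no longer exceeded 1.5-fold.

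**Figure D2:**
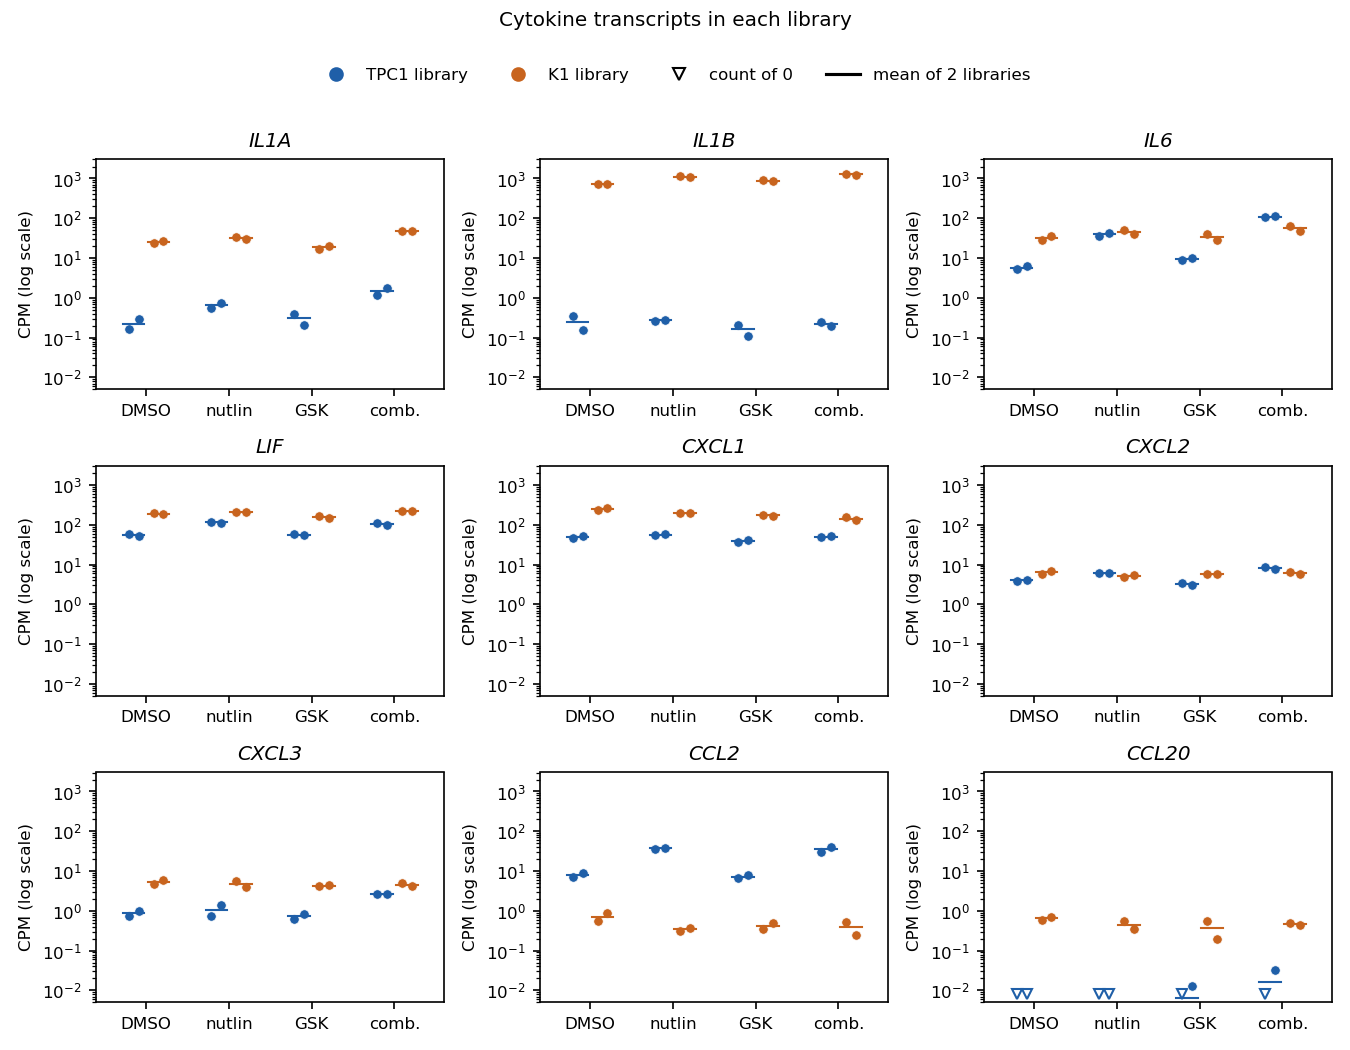
CPM (log scale) of each cytokine gene in every library by treatment, with TPC1 in blue and K1 in orange; GSK is GSK2830371 and comb. the combination, points are libraries, lines the mean of 2, and open triangles libraries with a count of 0. IL1A and IL1B lie far higher in K1 in every treatment, and CCL2 higher in TPC1.

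In TPC1, nutlin raised interleukins and chemokines. Of the 8 genes tested, 5 (CCL2, CXCL2, IL1A, IL6 and LIF) were upregulated and none fell, where 35.5% of 15273 genes were called. The median log2 change of the 8 genes was 0.84, against -0.0018 over all genes. CCL20, with 0 to 2 reads per library, was not tested in TPC1. In RNA from whole cultures, fewer cells making a transcript and less transcript per cell cannot be told apart.

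IL6, the pleiotropic cytokine of the secretome, changed most. It was at 5.26 and 6.31 CPM in the DMSO libraries, 36.5 and 42.4 with nutlin, 8.76 and 10.2 with GSK2830371, and 106 and 111 with the combination. The 4 groups did not overlap. Nutlin raised IL6 by 2.76 ± 0.13 on the log2 scale (6.77-fold, adjusted p = 1.9e-07), and the combination by 4.22 ± 0.13 (18.7-fold, adjusted p = 1.1e-08). Addition of GSK2830371 to nutlin raised it by a further 1.46 ± 0.11 (2.76-fold, adjusted p = 6.8e-05). IL6 became the cytokine with the highest level per kb under the combination, at 58.1 ± 1.89 CPM per kb, above CXCL1 at 42.4 ± 2.24.

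CCL2, the monocyte chemoattractant, rose with nutlin, and its change between nutlin and the combination did not pass the test. Its libraries held 7.25 and 8.93 CPM with DMSO, 36.4 and 39.1 with nutlin, 6.58 and 7.93 with GSK2830371, and 30.4 and 40.1 with the combination. The nutlin and combination libraries overlapped, and both lay above the DMSO and GSK2830371 libraries. The log2 change was 2.21 ± 0.16 with nutlin (4.63-fold, adjusted p = 3.3e-06) and 2.11 ± 0.16 with the combination (adjusted p = 3.1e-06), and -0.10 ± 0.15 between combination and nutlin (adjusted p = 0.67).

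LIF, the gp130 cytokine, was at 59.6 and 52.96 CPM with DMSO, 118 and 112 with nutlin, 59.7 and 54.2 with GSK2830371, and 111 and 95.9 with the combination. It rose with nutlin by 1.04 ± 0.10 (2.05-fold, adjusted p = 2.6e-05), and the difference between combination and nutlin was -0.16 ± 0.10 (adjusted p = 0.28). With GSK2830371 alone the log2 change was 0.018 ± 0.10 (adjusted p = 0.95).

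The neutrophil chemokines differed from each other. CXCL1, the most abundant of them, was at 46.6 and 52.4 CPM with DMSO, 55.1 and 58.3 with nutlin, 36.2 and 41.7 with GSK2830371, and 47.9 and 51.6 with the combination, and was called in none of the comparisons in TPC1. CXCL2 was at 3.79 and 4.19 CPM with DMSO, 6.21 and 6.23 with nutlin, 3.40 and 3.06 with GSK2830371, and 8.91 and 7.60 with the combination. It rose by 0.63 ± 0.13 with nutlin (adjusted p = 0.003) and 1.04 ± 0.13 with the combination (adjusted p = 0.0001), and its combination libraries lay above all others. The step from nutlin to the combination, 0.40 ± 0.13 (adjusted p = 0.048), stayed under 1.5-fold.
CXCL3 was at 0.752 and 0.992 CPM with DMSO, 0.727 and 1.40 with nutlin, 0.637 and 0.829 with GSK2830371, and 2.63 and 2.72 with the combination. The combination raised it by 1.58 ± 0.29 over DMSO (adjusted p = 0.0011) and by 1.25 ± 0.29 over nutlin (adjusted p = 0.013), while nutlin alone gave 0.34 ± 0.31 (adjusted p = 0.39). Without DMSO replicate 1 the nutlin change of CXCL2 was 0.57 and under 1.5-fold. The CXCL3 call over nutlin was lost without nutlin replicate 1, at 0.93, and without combination replicate 3, at 1.22, and its adjusted p ranged from 0.0002 to 0.065 over 16 alternatives.

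The IL-1 genes were scarce in TPC1. IL1A had 6 and 21 reads with DMSO, 17 and 48 with nutlin, 13 and 17 with GSK2830371, and 43 and 109 with the combination, or 0.161 and 0.289, 0.562 and 0.749, 0.394 and 0.214, and 1.19 and 1.81 CPM. The level climbed from DMSO through nutlin to the combination without overlap between these 3 groups. The log2 changes were 1.48 ± 0.44 with nutlin (adjusted p = 0.018), 2.65 ± 0.41 with the combination (adjusted p = 0.00036) and 1.17 ± 0.36 between combination and nutlin (adjusted p = 0.041). IL1B had 7 to 18 reads in every library and 0.113 to 0.349 CPM, and was called in no comparison, with SEs of the log2 changes from 0.52 to 0.58 between treatments.
The nutlin call of IL1A was lost without DMSO replicate 1, at 1.21, and without nutlin replicate 3, at 1.22 (adjusted p from 0.0024 to 0.14 over 16 alternatives). Its call over nutlin was lost without nutlin replicate 1, nutlin replicate 3 or combination replicate 3, at 1.02, 1.43 and 0.82, and with DESeq2, at 1.19 (adjusted p from 0.0068 to 0.24).

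With GSK2830371 alone, IL6 was the single gene of the set called in TPC1, up by 0.71 ± 0.13 (1.64-fold, adjusted p = 0.026), where 1.4% of genes were called. CXCL1 and CXCL2 had log2 changes of -0.35 ± 0.10 (adjusted p = 0.094) and -0.32 ± 0.14 (adjusted p = 0.23), and the median of the 8 genes was -0.20 against -0.0063 over all genes. The IL6 call was lost when any 1 of the DMSO, nutlin or GSK2830371 libraries was left out, replicates 1 and 3 of each, with log2 changes from 0.59 to 0.87. It was also lost when the 2 groups were fitted alone, at 0.72 (adjusted p from 8.1e-05 to 0.19 over 16 alternatives).

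Against DMSO, the combination upregulated 6 of the 8 genes in TPC1, CCL2, CXCL2, CXCL3, IL1A, IL6 and LIF, and none fell, where 44.2% of genes were called. Against GSK2830371 alone the same number, 6, was called up, where the background was 38.5%, and against nutlin 3 were called up, CXCL3, IL1A and IL6, where it was 12.1%. A term for the excess of the combination over the sum of the 2 single drug changes on the log2 scale was positive for 7 of 8 genes and called for 2, IL6 and CXCL2, where 6.32% of genes were called. For IL6 the single drug changes summed to 3.47 and the combination gave 4.22, an excess of 0.75 ± 0.17 (adjusted p = 0.029). For CXCL2 they summed to 0.31 against 1.04, an excess of 0.72 ± 0.19 (adjusted p = 0.049). CXCL3 had the largest estimate among the 8, 1.49 ± 0.43 (adjusted p = 0.069).
The excess of CXCL3 was called when replicate number was a block, at 1.51 (adjusted p = 0.0053), without a filter on low counts, at 1.48, with DESeq2, at 1.54, and with offsets for GC content and length, at 1.39 (adjusted p from 0.0053 to 0.22 over 15 alternatives). The excess of CXCL2 was lost with DESeq2, at 0.74, with library size alone, at 0.65, with the GC and length offsets, at 0.59, and without any 1 of the 8 libraries, at 0.61 to 0.84 (adjusted p from 0.007 to 0.18). The excess of IL6 was lost without DMSO replicate 3, either nutlin replicate, either GSK2830371 replicate or combination replicate 3, at 0.59 to 0.88 (adjusted p from 0.00014 to 0.11).

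**Figure D3:**
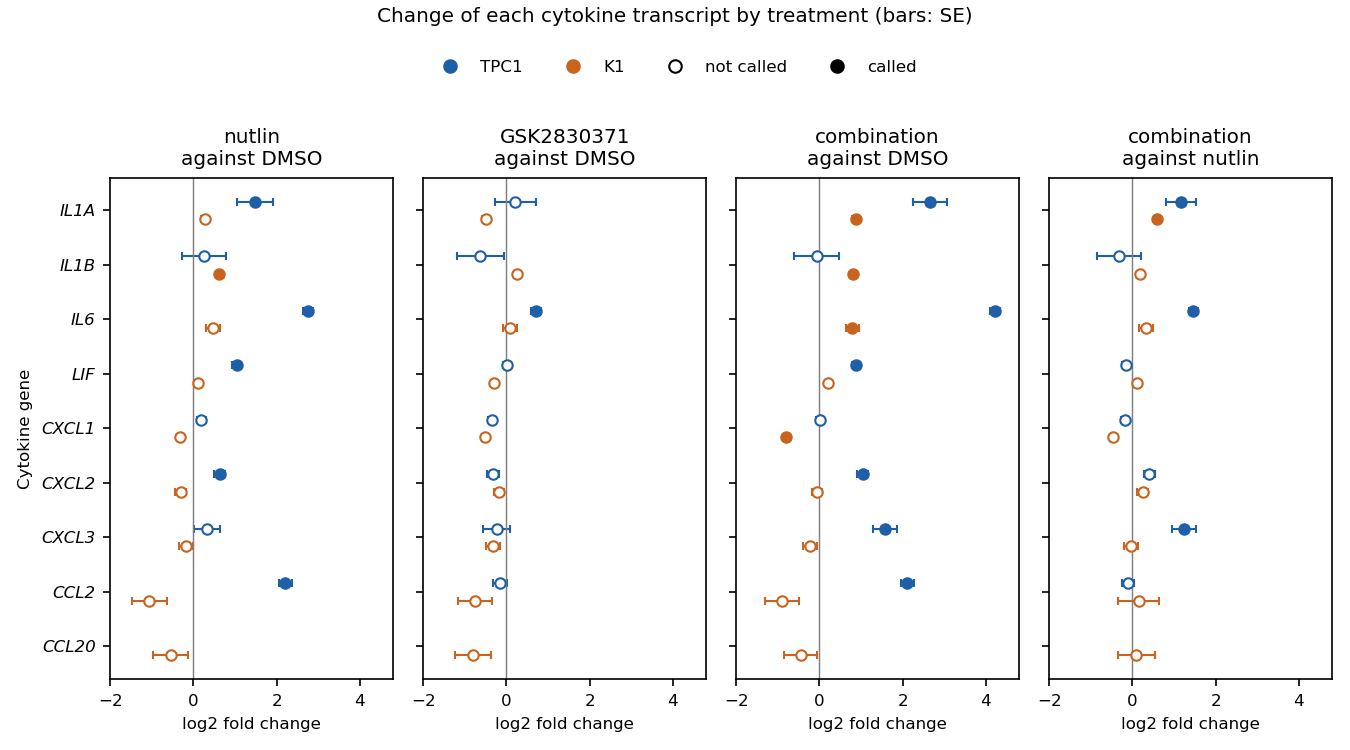
Log2 fold change (horizontal axis) of each cytokine gene in 4 comparisons, TPC1 in blue and K1 in orange, bars showing the SE and filled points the genes called (adjusted p under 0.05 and over 1.5-fold). In TPC1, IL6 changed by 2.76 with nutlin and 4.22 with the combination, against 0.47 and 0.80 in K1, while CXCL1 changed by -0.80 in K1 and 0.0065 in TPC1 with the combination; CCL20 was not tested in TPC1.

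In K1 fewer genes of the set passed the test. Nutlin called 1 of 9 genes, IL1B, where 9.27% of 15900 genes were called, and the median of the 9 was -0.19 against -0.0017 over all genes. IL1B, the leading cytokine of this line, was at 726 and 739 CPM with DMSO, 1159 and 1072 with nutlin, 901 and 846 with GSK2830371, and 1325 and 1225 with the combination, and the 4 groups did not overlap. Nutlin raised it by 0.61 ± 0.06 (1.52-fold, adjusted p = 3.9e-06) and the combination by 0.80 ± 0.06 (1.74-fold, adjusted p = 1.4e-07). Since the nutlin change is close to 1.5-fold, the call was lost without nutlin replicate 1, at 0.55.
The 9 leukocyte markers summed to 7.27 to 7.39 CPM in vehicle-treated K1 and to 3.90 to 3.96 with the combination. CD14, with 139 and 134 reads under DMSO, and CSF1R, with 109 and 132, made up most of this sum. With the combination CD14 had 79 and 75 reads and CSF1R 39 and 41. ITGAM went the other way, from 0 and 1 reads under DMSO to 7 and 4 with the combination. CD3E and MS4A1 were at 0 in every library and PTPRC (CD45) at 0 to 2 reads. In TPC1 the sum of the 9 markers was 0.529 to 1.03 CPM. There CD14 went from 15 and 29 reads under DMSO to 0 and 2 with the combination, and CSF1R from 17 and 37 to 0 and 12. ITGAM again went up, from 2 and 1 reads to 23 and 38.

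IL1A in K1 rose when the drugs were combined. It was at 24.6 and 27.4 CPM with DMSO, 33.3 and 29.6 with nutlin, 17.0 and 20.2 with GSK2830371, and 47.9 and 47.1 with the combination. The 4 groups did not overlap, with GSK2830371 lowest and the combination highest. The combination raised IL1A by 0.87 ± 0.09 over DMSO (1.83-fold, adjusted p = 2.9e-06) and by 0.60 ± 0.09 over nutlin (1.51-fold, adjusted p = 0.00083). The single drug changes were 0.27 ± 0.09 with nutlin (adjusted p = 0.036) and -0.49 ± 0.09 with GSK2830371 (adjusted p = 0.0032), both under 1.5-fold. They summed to -0.22, so the excess of the combination was 1.09 ± 0.13 (adjusted p = 0.0019), the single excess called among the 9 genes in K1, where 2.44% of genes were called. It was called in all 15 alternatives, at 0.86 to 1.22. IL1A was also the single gene called between combination and nutlin, where 2.68% were called, and this call, close to 1.5-fold, was lost without nutlin replicate 2, at 0.51, without combination replicate 1, at 0.58, and with GC and length offsets, at 0.57. Without GSK2830371 replicate 2 the fall of IL1A with GSK2830371 was -0.62 and was called.

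IL6 in K1 started higher than in TPC1 and rose less. Its libraries held 28.0 and 36.5 CPM with DMSO, 49.5 and 40.1 with nutlin, 39.8 and 28.6 with GSK2830371, and 63.2 and 48.9 with the combination. Replicates differed more than for IL1B, and the nutlin and combination groups overlapped. The combination raised IL6 by 0.80 ± 0.16 (1.74-fold, adjusted p = 0.0012), and the nutlin change of 0.47 ± 0.16 stayed under 1.5-fold (adjusted p = 0.043). Without DMSO replicate 2 the nutlin change was 0.68 and was called.

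LIF in K1 was at 193 and 191 CPM with DMSO, 211 and 204 with nutlin, 161 and 152 with GSK2830371, and 226 and 219 with the combination, again without overlap of the 4 groups. None of its changes exceeded 1.5-fold: GSK2830371 gave -0.29 ± 0.05 (adjusted p = 0.0022) and the combination 0.22 ± 0.05 (adjusted p = 0.0041).

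CXCL1 was the single member called down in K1. It was at 237 and 259 CPM with DMSO, 201 and 195 with nutlin, 177 and 169 with GSK2830371, and 155 and 130 with the combination, a stepwise order without overlap. It fell by 0.80 ± 0.08 on the log2 scale with the combination (adjusted p = 1.5e-06). The changes with nutlin, -0.33 ± 0.07 (adjusted p = 0.0044), and GSK2830371, -0.52 ± 0.07 (adjusted p = 0.00071), stayed under 1.5-fold, as did that between combination and nutlin, -0.47 ± 0.08 (adjusted p = 0.0016). Without combination replicate 1 the last was -0.61 and was called. The log2 changes of CXCL2 and CXCL3 with the combination in K1 were -0.06 ± 0.13 (adjusted p = 0.76) and -0.22 ± 0.16 (adjusted p = 0.30).

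CXCL2 at 4.96 to 7.09 CPM, CXCL3 at 3.91 to 5.80, CCL2 at 0.242 to 0.863 and CCL20 at 0.200 to 0.701 were called in no comparison between treatments in K1. CCL2 had 20 and 32 reads with DMSO, 9 and 12 with nutlin, 11 and 15 with GSK2830371, and 17 and 8 with the combination. Its log2 change was -1.06 ± 0.43 with nutlin (adjusted p = 0.079) and -0.90 ± 0.41 with the combination (adjusted p = 0.092). At 6 to 32 reads per library the changes of CCL2 and CCL20 were poorly resolved, and without combination replicate 1 CCL2 fell with the combination, at -1.56, and was called.

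Against DMSO, the combination thus called 4 of 9 genes in K1, IL1A, IL1B and IL6 up and CXCL1 down, where 15.7% of genes were called. Against GSK2830371, IL1A rose by 1.36 ± 0.09 (adjusted p = 9e-08) and IL6 by 0.71 ± 0.16 (adjusted p = 0.0031), 2 of 9 genes where 13.1% were called. The IL6 call was lost without GSK2830371 replicate 2, at 0.49, or combination replicate 1, at 0.52, and IL1B, at 0.54 ± 0.06, was called without GSK2830371 replicate 1, at 0.59, or combination replicate 2, at 0.60. GSK2830371 alone called 0 of 9 genes in edgeR and 0 in DESeq2, where 2.23% of genes were called. In edgeR 4 of the genes had an adjusted p under 0.05 but changed less than 1.5-fold. IL1B was higher, by 0.25 ± 0.06 (adjusted p = 0.0088), and CXCL1, IL1A and LIF were lower.

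The nutlin response itself differed between the lines. The difference in response, K1 minus TPC1, was called for 5 of 9 genes, all negative, where 19.2% of genes were called. It was -3.30 ± 0.48 for CCL2 (adjusted p = 6.9e-05), which rose in TPC1 and had 9 and 12 reads with nutlin in K1. It was -2.32 ± 0.25 for IL6 (adjusted p = 3.3e-06), -0.97 ± 0.19 for CXCL2 (adjusted p = 0.00095), and -0.96 ± 0.11 for LIF (adjusted p = 4.9e-06). For IL1A it was -1.23 ± 0.39 (adjusted p = 0.023), on 6 and 21 TPC1 reads with DMSO. In K1 the nutlin changes of CCL2 and CXCL2 were themselves negative, at -1.06 ± 0.43 and -0.30 ± 0.13, with neither called. IL1B had a positive difference between the lines, 0.26 ± 0.39 (adjusted p = 0.72). The p53 targets CDKN1A, MDM2 and PPM1D were also called with a negative difference, so this direction was not particular to the 5 genes.
The median over the 9 genes was -0.96 against -0.03 over all genes. The IL1A difference was lost without TPC1 DMSO replicate 1, at -0.98, or TPC1 nutlin replicate 3, at -0.94. CXCL1, at -0.55 ± 0.14 (adjusted p = 0.0069), was under 1.5-fold and was called without TPC1 DMSO replicate 3, TPC1 nutlin replicate 1 or K1 DMSO replicate 1, at -0.67, -0.60 and -0.62.

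The step from nutlin to the combination differed for 2 of 9 genes, where 5.11% were called. IL6 gained 1.13 less in K1 on the log2 scale, a difference of -1.13 ± 0.23 (adjusted p = 0.0068), and CXCL3 had a difference of -1.25 ± 0.33 (adjusted p = 0.028). The difference of IL1A, which was called up in each line, was -0.57 ± 0.29 (adjusted p = 0.27). The CXCL3 difference was lost without TPC1 nutlin replicate 1, TPC1 combination replicate 3, K1 nutlin replicate 1 or either K1 combination replicate, at -1.37 to -0.95.

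Summed over the 9 genes, TPC1 libraries held 125 ± 1.78 CPM with DMSO, 257 ± 4.39 with nutlin, 117 ± 1.72 with GSK2830371 and 310.0 ± 1.99 with the combination (SD, n = 2). In K1 the sums were 1244 ± 34.1, 1607 ± 80.6, 1267 ± 57.2 and 1756 ± 105 CPM. The make-up of the sum shifted in TPC1, where IL6 went from 4.63% with DMSO to 15.3% with nutlin and 35.1% with the combination and CXCL1 from 39.6% to 16.1%. In K1, IL1B went from 58.9% with DMSO to 72.6% with the combination and CXCL1 from 19.9% to 8.14%.

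**Figure D4:**
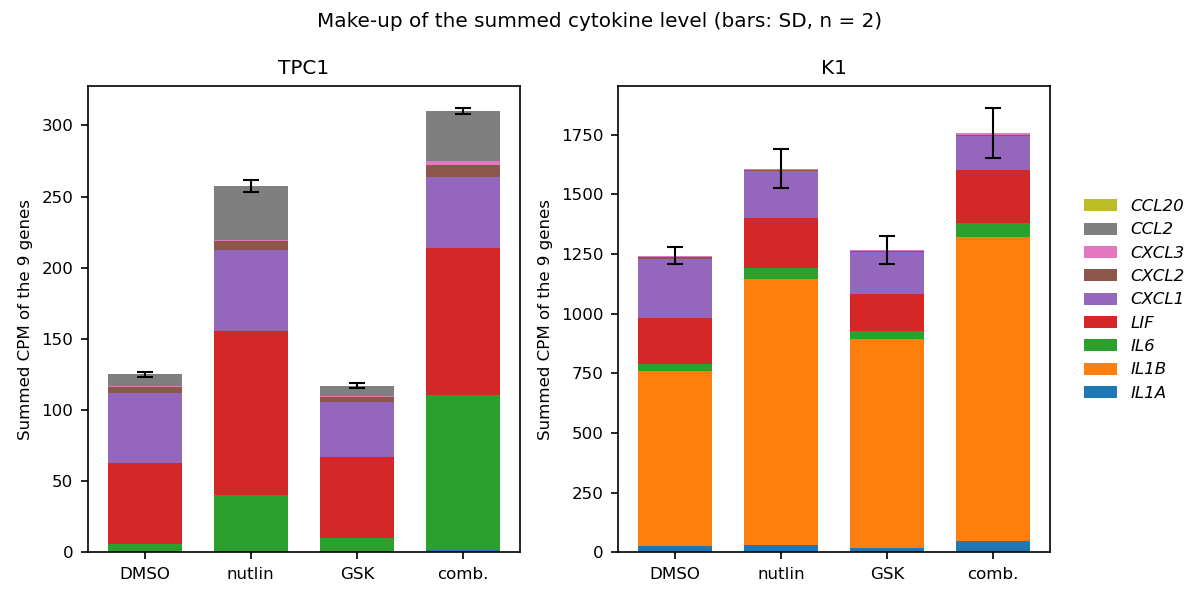
Summed CPM of the 9 genes by treatment in TPC1 (left) and K1 (right, with its own axis), stacked by gene, with error bars showing the SD of 2 library sums; GSK is GSK2830371 and comb. the combination. In TPC1 the combination reached 310.0 CPM with IL6 at 35.1%, and in K1 IL1B made up 58.9% to 72.6% of the sum.

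The receptors and antagonists of these cytokines changed in both directions. For this list and those that follow, the medians over all genes were -0.0018 for nutlin and 0.013 for combination against nutlin in TPC1, and -0.0017 and 0.0044 in K1. The shares of all genes called were, in the same order, 35.5%, 12.1%, 9.27% and 2.68%. Of 13 listed, 12 were in the table and 8 were tested in TPC1. Nutlin raised CXCR2, IL1RAP and OSMR and lowered IL1R2 (median log2 change -0.07), 4 of 8 where 35.5% of all genes were called. IL1RAP, the accessory chain of the IL-1 receptor, went from 16.4 ± 1.47 to 45.9 ± 1.66 CPM, a log2 change of 1.49 ± 0.09 (adjusted p = 1.6e-06). From nutlin to the combination CXCR2 and IL1RAP rose and IL1R1 and IL6R fell (median -0.13). IL1R1, the signaling IL-1 receptor, went from 21.8 ± 0.917 to 11.8 ± 0.786 CPM, a change of -0.88 ± 0.09 (adjusted p = 0.00021). CXCR2, the receptor of the CXCL1 family, went from 0.576 ± 0.113 to 1.87 ± 0.0494 CPM (1.66 ± 0.37, adjusted p = 0.011), a call lost without nutlin replicate 1, at 1.51, or nutlin replicate 3, at 1.91.
In K1, 9 were tested, and nutlin raised CXCR2 and IL6R (median 0.07). IL6R went from 3.74 ± 0.891 to 5.89 ± 0.388 CPM (0.65 ± 0.15, adjusted p = 0.0057), lost without DMSO replicate 1, at 0.43, or nutlin replicate 1, at 0.58. CXCR2 alone was called between combination and nutlin, from 0.683 ± 0.132 to 1.65 ± 0.245 CPM (1.26 ± 0.30, adjusted p = 0.016). It was lost without any 1 of the 4 nutlin and combination libraries, at 1.09 to 1.48.

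NF-κB subunits, inhibitors and IL-1 signaling genes, together with the NF-κB target genes ICAM1 and SOD2, numbered 22, all tested. In TPC1, nutlin raised 4, BIRC3, IRAK2, NFKBIZ and SOD2, and lowered IRAK1 (median 0.09), 5 of 22 where 35.5% of all genes were called. NFKBIZ, the nuclear IκB that acts as a coactivator at IL6, went from 42.8 ± 7.58 to 83.9 ± 1.60 CPM (0.97 ± 0.13, adjusted p = 0.0002). With the combination it fell again to 48.3 ± 2.09 (-0.80 ± 0.13, adjusted p = 0.0026). Its part in the IL6 changes was not tested. IRAK1, the IL-1 receptor kinase, went from 796 ± 12.7 to 463 ± 14.1 CPM (-0.78 ± 0.09, adjusted p = 5.7e-05).
The combination raised NFKB2, RELB and TRAF1 over nutlin, genes of the noncanonical arm and a TNF receptor adaptor, and lowered BIRC3, MYD88, NFKBIZ and SOD2 (median 0.015). TRAF1 went from 1.90 ± 0.0199 to 4.96 ± 0.877 CPM (1.39 ± 0.17, adjusted p = 0.00066). In K1, nutlin called 1 of the 22, NFKBIE, which encodes IκBε, from 5.33 ± 0.122 to 8.40 ± 0.514 CPM (0.65 ± 0.11, adjusted p = 0.00055), and 0 were called between combination and nutlin in edgeR or DESeq2, with 3 at an unadjusted p under 0.05.

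All 4 C/EBP factors were called with nutlin in TPC1, CEBPB and CEBPD up and CEBPA and CEBPG down, where 35.5% of all genes were called. CEBPB, a known activator of IL6, went from 53.6 ± 5.35 to 101 ± 13.4 CPM (0.92 ± 0.15, adjusted p = 0.00058). Its part in the IL6 changes was not tested. CEBPG, a partner of ATF4, went from 35.3 ± 0.640 to 16.1 ± 0.634 CPM with nutlin (-1.13 ± 0.08, adjusted p = 3.5e-06) and rose to 80.9 ± 1.63 with the combination (2.33 ± 0.08 over nutlin, adjusted p = 1.2e-06), where CEBPB rose too. In K1, nutlin called 0 of the 4 in edgeR or DESeq2, with 3 at an unadjusted p under 0.05, and CEBPG alone rose from nutlin to the combination, from 27.2 ± 0.931 to 46.2 ± 0.893 CPM (0.77 ± 0.07, adjusted p = 3e-05).

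A list of 11 genes held factors that bind or cleave AU-rich cytokine mRNAs and the kinases MAPK14 and MAPKAPK2. In TPC1, nutlin raised ZFP36 and ZFP36L1 and lowered ELAVL1, HNRNPD, KHSRP and ZFP36L2 (median -0.31). These were 6 of 11, where 35.5% of all genes were called. ZFP36L1, a decay factor, went from 303 ± 15.0 to 678 ± 29.4 CPM (1.16 ± 0.08, adjusted p = 2.4e-06), and HNRNPD (AUF1) from 560.2 ± 44.9 to 217 ± 1.51 (-1.37 ± 0.10, adjusted p = 4.5e-06). Between combination and nutlin 0 of the 11 were called in either line in edgeR or DESeq2, with 5 in each line at an unadjusted p under 0.05, and with nutlin in K1 0 were called, with 7 at that level. These medians stood at -0.16 in TPC1 and -0.03 and -0.10 in K1.

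Of 7 genes of IL-1 maturation and the inflammasome, nutlin raised CAPN1 and CASP1 in TPC1 (median 0.44), 2 of 7 where 35.5% of all genes were called. CASP1, the protease that matures IL1B, went from 0.116 ± 0.0502 to 1.90 ± 0.400 CPM (3.92 ± 0.49, adjusted p = 0.00013). From nutlin to the combination NLRP3, the inflammasome sensor, went from 34.1 ± 1.29 to 63.0 ± 5.20 CPM (0.89 ± 0.09, adjusted p = 0.0002) and CAPN2, a calpain, from 1057 ± 4.48 to 700.5 ± 28.8 (-0.59 ± 0.07, adjusted p = 0.00074). The latter was under 1.5-fold without combination replicate 3, at -0.55. In K1, where IL1B is abundant, nutlin called 0 of the 7 in edgeR or DESeq2, with 4 at an unadjusted p under 0.05. The combination lowered PYCARD, the inflammasome adaptor, from 3.26 ± 0.345 to 2.14 ± 0.0925 CPM (-0.60 ± 0.18, adjusted p = 0.041), a call lost with DESeq2, library size alone, GC and length offsets or the replicate block, and without any 1 of the 4 nutlin and combination libraries, at -0.71 to -0.49 over these 8 settings.

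Of 38 other secreted factors of the senescence program, 37 were in the table and 27 were tested in TPC1 with nutlin: 10 rose and 0 fell (median 0.44), where 35.5% of all genes were called, 2671 up and 2752 down. GDF15, a stress cytokine and p53 target, went from 117 ± 14.2 to 1664 ± 84.3 CPM (3.83 ± 0.11, adjusted p = 1.5e-08). From nutlin to the combination 5 rose and 6 fell (median -0.09). AREG, an EGF receptor ligand, went from 1.24 ± 0.0726 to 5.73 ± 0.0901 CPM (2.22 ± 0.19, adjusted p = 0.0001), and IGFBP3, which binds insulin-like growth factors, from 475 ± 39.5 to 232 ± 72.2 (-1.03 ± 0.18, adjusted p = 0.0037).
In K1, 31 were tested, and nutlin raised 3, GDF15 among them, and lowered TNF (median 0.19). GDF15 went from 0.349 ± 0.151 to 1.34 ± 0.428 CPM with nutlin (1.96 ± 0.35, adjusted p = 0.00081) and to 5.53 ± 0.423 with the combination (2.03 ± 0.22 over nutlin, adjusted p = 0.00011). TNF, another NF-κB target, went from 3.22 ± 0.245 to 1.92 ± 0.0795 CPM (-0.75 ± 0.18, adjusted p = 0.0051). IL24 fell between nutlin and the combination, from 13.4 ± 0.236 to 7.51 ± 0.326 CPM (-0.83 ± 0.16, adjusted p = 0.0042), a call lost without nutlin replicate 2, at -0.81, and PLAT and SERPINB2 fell with it (median -0.10).

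Among the 12308 TPC1 genes that averaged 1 CPM or more, the levels most like those of LIF, the member with the highest mean CPM over the 8 libraries, were C11orf45, SCRIB and CACFD1, with Pearson r of 0.998, 0.998 and 0.997 over 8 libraries. In K1 the levels most like those of IL1B among 12544 genes were BLCAP, EPS8L2 and NFKBIE, with r of 0.995, 0.994 and 0.994 over 8 libraries. The 8 libraries fall into 4 treatments, so these values describe a shared order of the treatments.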

How the data were processed

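Raw read counts per gene were deposited by the authors in one table of 16 libraries. Per the study's methods, reads of stranded poly(A) libraries were trimmed, aligned to GRCh37/hg19 with TopHat2 2.0.13, filtered on mapping quality and counted by strand with HTSeq 0.6.1. Replicates were prepared independently. Counts were tested with edgeR 4.0.16 (TMM scaling, quasi-likelihood test), each line in its own fit of 8 libraries and line differences in a fit of all 16. Genes needed more than 0.1 CPM in at least 2 libraries. CPM uses the scaled total of the genes tested, and the SE is the log2 change divided by the square root of F. This SE can be too small where 1 group has few reads. DESeq2 1.42.0 was an alternative. The scripts were tested on simulated data.

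The members and lists were chosen with earlier results of these data known. Named are the 9 genes, 3 p53 targets, and per list, line and comparison (nutlin against DMSO, combination against nutlin) the called gene with the largest rise and the largest fall whose higher group averaged at least 1 CPM; markers are given as sums. Other genes are named where a count was small or to describe a list, after their values were seen. Not every gene counted in a list is reported here by name. In TPC1, columns carry the replicate numbers 1 and 3, and number 3 columns were assigned by group name. Same-numbered TPC1 libraries deviated together (r of 0.495 to 0.697 for the 6 pairs of groups over 12308 genes), so the numbers were taken to pair them. The main fit did not use this pairing, and a replicate block was added only as an alternative. Sequences came from RefSeq (GRCh38.p14) and gene models from GENCODE on GRCh37.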

Additional observations from a re-analysis of the deposited data

Results flagged for a closer look

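The following 7 differences between the lines passed the test of the difference itself, given as K1 minus TPC1 on the log2 scale. For the nutlin response they were -3.30 for CCL2, -0.97 for CXCL2, -1.23 for IL1A, -2.32 for IL6 and -0.96 for LIF. For the step from nutlin to the combination they were -1.25 for CXCL3 and -1.13 for IL6. Groups of 2 libraries are too small for a search for single deviating libraries.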

How the results depend on the processing

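Over the alternatives, 2172 results of single members kept their direction and side of the thresholds, 47 lost a call, 16 gained one and 0 reversed. For genes named from the lists, 476 were kept and 19 lost. Adjusted p-values that DESeq2 did not give were left out. Counts of members called stayed within 1.5 times in TPC1 for combination against DMSO and against GSK2830371, in K1 for combination against DMSO and the excess, and between lines for DMSO and the nutlin response. When 1 library was left out, a lone library was assumed to vary like the other groups, and the counts of members called ran from 3 to 5 for nutlin, 0 to 1 for GSK2830371, 1 to 3 for combination against nutlin and 0 to 1 for the excess in TPC1. In K1 they ran from 0 to 2 for nutlin, 0 to 1 for GSK2830371, 0 to 1 for combination against nutlin and 1 to 3 for combination against GSK2830371, and between lines from 1 to 2 for combination against nutlin. With only the compared groups fitted, 0 members were called for GSK2830371 in TPC1, where 51 of 14578 genes were called up and 55 down. With library size alone 1 was called for the excess in TPC1, where 338 of 15273 genes were called up and 705 down. With GC and length offsets, chosen after seeing the data, K1 had 0 for combination against nutlin and 4 for combination against GSK2830371. Of 15900 genes, 191 were then called up and 236 down for the former, and 782 up and 973 down for the latter. The cause was not tested.

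With a replicate block, 3 members were called for the excess in TPC1 in place of 2, CXCL3 being added, and no other call of a member changed. Over all TPC1 genes the block raised the calls for GSK2830371 from 110 up and 104 down to 239 and 241. Those for the excess went from 431 up and 534 down to 714 and 859. In K1 the same-numbered libraries had correlations of deviations from -0.357 to 0.376 and share only a number. There the block ended the call of PYCARD between combination and nutlin, at -0.60. Depth limits the scarce genes: IL1B in TPC1 had 7 to 18 reads per library and CCL20 in K1 6 to 26.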
